A study of Mus musculus with 20 samples.

Results

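The livers of *Crem* knock-out (KO) mice at the end of the light phase (12 h) were compared with those of wild-type (WT) mice taken at the same time. The arrays were chosen by the time and the genotype in their labels, which gave 5 KO and 5 WT livers, 10 of the 20 arrays of the series. Each array held whole liver RNA of 1 mouse. The WT livers came from mice 111, 167, 168, 169 and 170, the KO livers from mice 18, 55, 109, 110 and 166. The other 10 arrays hold livers of other KO and WT mice taken at the onset of light (0 h, 5 of each genotype). Both genotypes shared the mixed strain 129Pas x C57Bl/J, an age of 8 weeks, equal hours of light and dark and free access to food and water, and no mouse was treated. The knock-out is constitutive, so every cell of the liver carries it, and the labels trace the line to the CREM-mutant mice in which sperm development fails. The sex of the mice is not given in the labels. The Y-linked gene *Eif2s3y* lay between 9.86 and 10.29 on the log2 scale in all 10 livers. All 12 h arrays carry the same batch label (5), and genotype was compared within it.

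CREM is a transcription factor of the CREB family, which binds the cAMP response element (CRE) in promoters. cAMP rises in hepatocytes when glucagon or adrenaline acts on them, and the kinase PKA then phosphorylates CREB and the activator forms of CREM, while other CREM forms, ICER among them, repress the same sites. In the liver this pathway is known for the fasting programme, in which glucose production and the use of fatty acids go up. Mice feed mostly at night, so the end of the light phase follows many hours of low food intake, and the fatty acid receptor PPARα is active in that state. The comparison asks which genes and pathways of the liver differ between the genotypes at this time of day.

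The values were log2 expression values of probe sets, sets of array probes summarised to 1 number for each transcript. Array medians on the log2 scale were 7.07 to 7.15 for WT livers and 7.13 to 7.17 for KO livers, a difference of 0.043 between the group means. Pairwise correlations among the 10 arrays ran from 0.985 to 0.992. A principal component analysis of these 10 livers put 20.3% of the variance on component 1, where every KO liver lay below 0 and every WT liver above it. WT mouse 170 lay farthest out, at 30, against 0.0243 to 13.5 in the other 4 WT livers. Arrays with a lower median tended to lie higher on this component. WT mice 170 and 168, at 30 and 13.5, had the lowest medians (7.07 and 7.09), and KO mouse 55, at -17.5, had 7.16. Genotype and array-wide level cannot be told apart on component 1, and the part of each was not tested. Hepatocyte markers were at the top of the scale in both groups, with *Alb* (albumin) at 14.30 ± 0.02 (SD, n = 5) in the KO livers and at 14.26 ± 0.06 (SD, n = 5) in the WT livers. The labels do not say how mice were assigned to arrays, and the number of arrays limits the precision. The sample titles number all WT arrays at 12 h before all KO arrays, so genotype follows that number within the batch. What the number stands for is not given, and its part in the differences was not tested.

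**Figure D1:**
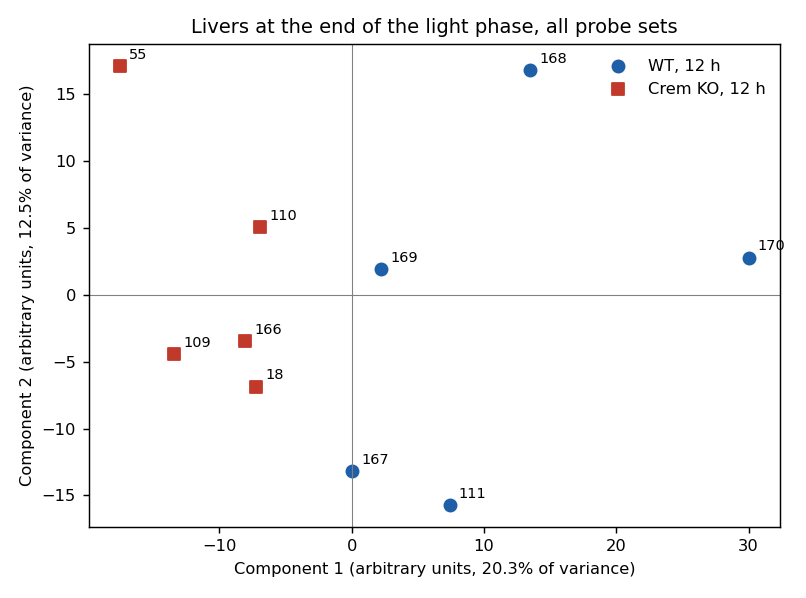
First (horizontal) and second (vertical) principal components, in arbitrary units, computed from the log2 expression of all probe sets in the 10 livers at 12 h. Each symbol is 1 mouse with its number, circles for WT and squares for KO. The KO livers lie between -17.5 and -6.91 on component 1 and the WT livers between 0.0243 and 30.

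Few single genes passed the test at 12 h, while small differences were spread over many. Of 25689 probe sets, 6 were called at a Benjamini-Hochberg adjusted p under 0.05 from limma (0.0234%), 4 of them higher in KO livers (0.0156%) and 2 lower (0.00779%). At an unadjusted p under 0.05 there were 3216 (12.5%), with 1639 higher (6.38%) and 1577 lower (6.14%). The 5 KO and the 5 WT values did not overlap in 622 probe sets (2.42%), with the KO values above in 304 (1.18%) and below in 318 (1.24%). A log2 fold change (KO minus WT) under -0.5 was found for 111 probe sets and one over 0.5 for 60. The spread behind the test was shared with the 10 livers at 0 h, and 0 probe sets were called by limma with the 12 h arrays alone (2796 at an unadjusted p under 0.05).

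At 0 h, in other mice, 0 probe sets were called by limma and 1148 had an unadjusted p under 0.05 (4.47%). Groups that did not overlap were also fewer there, with 88 probe sets above (0.343%) and 99 below (0.385%). The median size of the log2 fold change was 0.0881 at 12 h and 0.0681 at 0 h. The difference between the genotype contrasts of the 2 times was called for 0 probe sets by limma, with 1757 at an unadjusted p under 0.05 (6.84%). No gene is therefore shown to differ between genotypes at 12 h alone. Of the 318 probe sets with every KO liver below every WT liver at 12 h, 192 had a log2 fold change below 0 at 0 h (60.4%, against 50.3% of all probe sets). Of the 304 in the opposite direction, 178 were above 0 at 0 h (58.6%, against 49.7%).

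*Slc43a1*, which encodes a transporter of large neutral amino acids (LAT3), fell in the KO livers. Its log2 level was 9.15, 8.79, 9.05, 9.15 and 9.54 in WT mice 111, 167, 168, 169 and 170, and 8.49, 8.17, 8.46, 8.47 and 8.18 in KO mice 18, 55, 109, 110 and 166. The groups did not overlap, and the KO values were 1.72-fold lower on average (log2 fold change -0.78, standard error 0.12, adjusted p = 0.0171). At 0 h its log2 fold change was 0.09. The difference between the times had an unadjusted p of 3.21e-05 and an adjusted p of 0.475 (limma). The call was kept in 9 of 10 runs that left out 1 array and was lost without KO mouse 55.

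*Aqp4*, a water channel of the plasma membrane, fell by more. The WT livers held 6.77, 6.62, 7.74, 7.00 and 7.28 (in the same order of mice) and the KO livers 5.83, 6.11, 5.69, 5.54 and 5.62. All KO values lay below 6.62, the lowest WT value, and the mean was 2.5-fold lower (log2 fold change -1.32, 95% confidence interval -1.71 to -0.94, adjusted p = 0.0107). The KO levels are below the median of an array, and the WT mean of 7.08 is near it. *Aqp4* lies on chromosome 18, as does *Crem*, and had a log2 fold change of -0.70 at 0 h. *Dsg2* and *Psma8* of the same chromosome were at -0.46 and 0.36 at 12 h, neither called, and at -0.54 and 0.52 at 0 h. Sequence linked to the targeted allele and the loss of CREM cannot be told apart for these genes.

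*Dct*, known as the dopachrome tautomerase of pigment cells, rose in the KO livers. WT livers held 6.10, 6.62, 5.77, 6.10 and 6.0 and KO livers 7.04, 6.70, 6.73, 6.93 and 6.60. WT mouse 167 reached into the KO range, and the other 4 WT livers lay below it (log2 fold change 0.68, standard error 0.12, adjusted p = 0.0476). These levels are below the median of an array.

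The other 3 called probe sets have no gene in the annotation used. Probe set 10574415 lay between 6.41 and 7.16 in WT and between 7.32 and 8.00 in KO livers (log2 fold change 0.87). Probe set 10441231 had 5.93 to 6.48 and 6.63 to 6.82 (0.53), and probe set 10507473 had 7.37 to 7.81 and 8.06 to 8.20 (0.52). Each had an adjusted p of 0.0476, which *Dct* shared, and none of the groups overlapped. The 4 called upward were less stable than the 2 called downward. *Aqp4* and *Slc43a1* were called in 15 of 17 other settings each, and *Dct* in 5, with 5 to 8 for the unnamed probe sets. Of these settings, bright probe sets alone did not hold *Aqp4*, *Dct* or probe set 10441231, which were thus not tested there. With batch as a fixed block in limma, *Dct* and probe sets 10441231 and 10574415 were no longer called, while *Aqp4*, *Slc43a1* and probe set 10507473 were. All 12 h arrays share 1 batch label, so this block left their fold changes as they were. It changed only the spread used in the test, through the 0 h arrays, and says nothing of batch at 12 h.

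*Crem* itself was not called. Its probe set held 8.01, 8.02, 7.90, 8.01 and 7.93 in WT livers and 7.67, 7.48, 7.83, 7.64 and 7.39 in KO livers. Every KO liver lay below every WT liver, by a mean log2 difference of -0.37 (standard error 0.12, adjusted p = 0.19). The exact permutation test gave a two-sided p of 0.0079, the lowest value that this test can give for 5 livers against 5. The signal in the KO livers was still above the median of the arrays. Which probes lie in the part of *Crem* that the mutation disrupts was not checked, so the level does not by itself test the genotype labels.

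**Figure D2:**
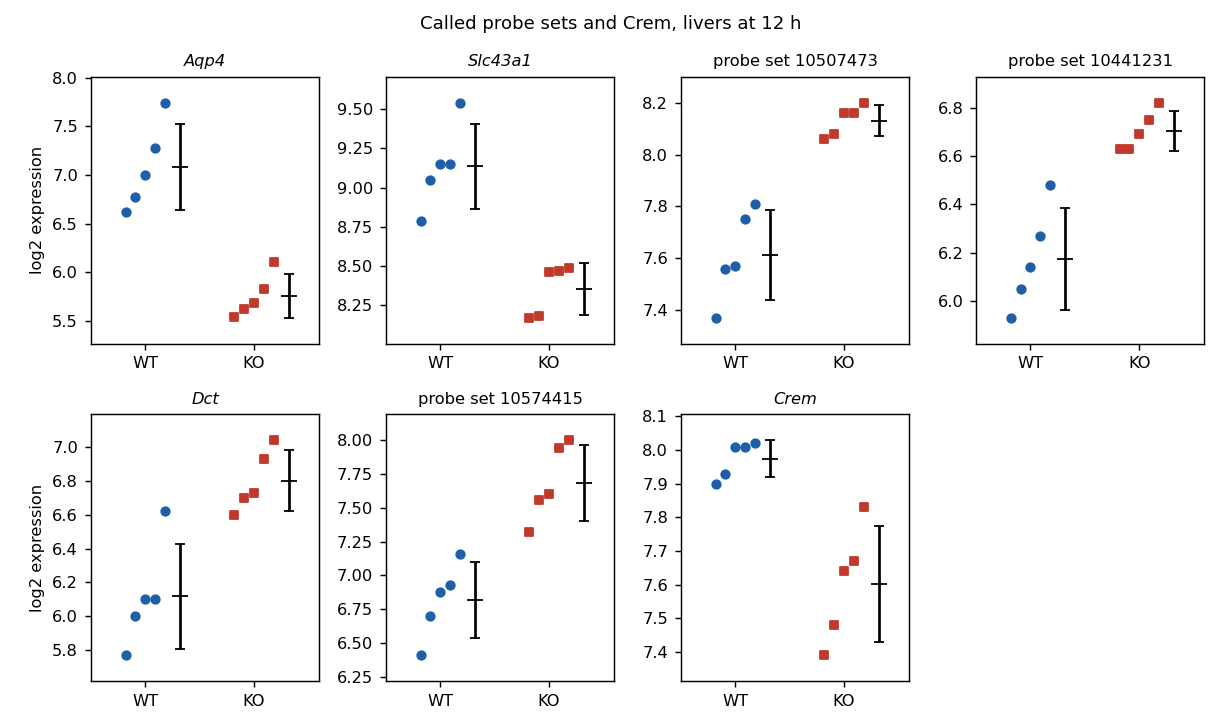
Log2 expression (vertical axes, which differ between panels and do not start at 0) of the 6 probe sets called at 12 h and of *Crem* in WT (circles) and KO (squares) livers. Each point is 1 mouse, ordered by level within its group, and the bar beside it gives the mean and SD of 5 mice. *Aqp4* lies between 5.54 and 6.11 in KO and between 6.62 and 7.74 in WT livers.

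Among 17 measured genes of the CREB family, its coactivators and PKA, 0 were called by limma. At an unadjusted p under 0.05 there were 0 higher and 2 lower, against 6.38% and 6.14% of all probe sets. Those 2 were *Crem* itself, the disrupted gene, and *Crtc2*. The median log2 fold change of the 17 was -0.03. *Creb1* was at -0.03 (95% confidence interval -0.28 to 0.22) and *Atf1*, the third activator of the family, at 0.03 (-0.16 to 0.21). *Crtc2*, the coactivator through which glucagon acts on CREB in the liver, was at -0.17 (-0.33 to 0.00).

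Of 23 genes known to respond to cAMP, 1 had an unadjusted p under 0.05 above 0 and 5 below it, against 6.38% and 6.14% of all probe sets. Those 5 were *Crem* itself, the disrupted gene, with *Ppargc1a*, *Tat*, *Per1* and *Cebpb*. The median of the list was -0.04, which became -0.14 without KO mouse 55 and -0.15 over bright probe sets alone. *Ppargc1a*, the coactivator PGC-1α of the fasting programme, held 8.36, 7.98, 8.18, 8.09 and 8.38 in WT and 7.84, 7.88, 7.55, 8.04 and 7.81 in KO livers. KO mouse 110 reached the WT range and the other 4 KO livers lay below it (log2 fold change -0.37, adjusted p = 0.264). At 0 h *Ppargc1a* was at 0.19. The enzymes of glucose production *Pck1* and *G6pc* were at -0.15 and -0.21, and the clock gene *Per1*, a CREB target, was at -0.31. The early response genes lay on both sides of 0. *Fos* was at 0.34 (adjusted p = 0.276, and 0.22 without KO mouse 55), *Fosb* and *Junb* were at 0.14 each and *Nr4a2* at 0.01, while *Egr1* was at -0.12 and *Dusp1* at -0.26. None of these was called.

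The promoters of the genes that separated the genotypes were searched for the CRE, spelled TGACGTCA, which reads the same on both strands. The window ran from 250 bases before to 50 bases after the transcription start, from RefSeq on GRCm38.p6, and covered 15353 genes of the array. The full element stood in 418 of them (2.72%). It stood in 6 of 215 genes with every KO liver below every WT liver (2.79%) and in 3 of 175 genes with every KO liver above (1.71%), shares near that of all promoters. The shorter core TGACG, or CGTCA on the other strand, which is part of the full element, stood in 4276 promoters (27.9%), in 77 of the 215 (35.8%) and in 41 of the 175 (23.4%). Among the cAMP-responsive genes 14 of 19 promoters held the core (73.7%) and 1 the full element (5.26%).

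Among the 9 promoters with the full element, 4 belonged to genes with an unadjusted p under 0.01, and 60 bases around it are shown to place the element in its setting. They were chosen after their values were seen. The capitals mark the CRE, each run is 5′ to 3′ on the strand of the gene, and the build is GRCm38.p6. *Tbcc*, a tubulin folding cofactor, has it at chr17:46890559-46890618 on the plus strand. *Hhip*, an inhibitor of hedgehog signalling, has it at chr8:80058050-80058109, *Slc25a36*, a mitochondrial carrier, at chr9:97111169-97111228, and *Csf2ra*, a receptor subunit for the cytokine GM-CSF, at chr19:61228477-61228536, these 3 on the minus strand.
Tbcc: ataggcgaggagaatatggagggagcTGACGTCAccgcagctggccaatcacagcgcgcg
Hhip: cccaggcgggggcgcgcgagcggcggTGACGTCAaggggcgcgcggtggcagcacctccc
Slc25a36: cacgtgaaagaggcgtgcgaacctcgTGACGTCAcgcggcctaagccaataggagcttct
Csf2ra: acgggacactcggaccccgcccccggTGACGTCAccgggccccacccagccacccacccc

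*Tbcc* had a mean log2 level of 7.65 in KO and 7.96 in WT livers and *Hhip* one of 7.00 and 7.34. *Slc25a36* had 7.75 and 7.36 and *Csf2ra* 8.40 and 8.18. Their log2 fold changes were -0.31, -0.34, 0.39 and 0.23. The genes had been taken from those with every KO liver below and those with every KO liver above. The presence of both directions follows from that choice and says nothing about the element. None was called (adjusted p from 0.0942 to 0.156). A match in these windows is a description of the letters and not of binding.

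The largest differences in liver metabolism lay among targets of PPARα. The ω-hydroxylases of the Cyp4a family, which oxidise fatty acids at the far end of the chain, held both the lowest members of the list and members near 0, as *Cyp4a12a* and *Cyp4a12b* were at 0.04 and 0.03. *Cyp4a14* held 9.04, 9.0, 8.38, 8.01 and 11.87 in WT and 6.55, 6.78, 7.29, 6.02 and 7.21 in KO livers. No KO liver reached the lowest WT liver, and WT mouse 170 stood far above the other 4. The mean was 5.61-fold lower in KO livers (log2 fold change -2.49, 95% confidence interval -3.46 to -1.52, adjusted p = 0.0529). Without WT mouse 170 the log2 fold change was -1.84 and the adjusted p 0.0176. The SD was 1.52 in WT and 0.52 in KO livers at 12 h, and 0.51 and 0.24 at 0 h. The interval uses a spread shared by these groups and understates that of the WT livers at 12 h.

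*Cyp4a10* held 9.85, 10.12, 10.02, 9.13 and 10.99 in WT and 8.79, 7.80, 9.12, 7.26 and 9.15 in KO livers. WT mouse 169 was the lowest of its group here too and fell within the KO range (log2 fold change -1.60, adjusted p = 0.09). *Cyp4a31* was at -1.55 (adjusted p = 0.134). Probes of these neighbouring and similar genes may take up each other's transcripts, so they are not independent.

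*Cd36*, the fatty acid uptake receptor, held 9.67, 10.25, 10, 9.57 and 10.72 in WT and 9.20, 8.43, 9.16, 9.12 and 9.29 in KO livers. The groups did not overlap, with KO mouse 55 lowest (log2 fold change -1.0, adjusted p = 0.0877, and 0.12 at 0 h). *Pdk4*, the kinase that shuts off pyruvate dehydrogenase in fasting, lay between 7.1 and 7.57 in WT and between 6.59 and 6.97 in KO livers (-0.55, adjusted p = 0.183). *Vnn1*, the pantetheinase vanin-1, had a log2 fold change of -1.59. KO mouse 18 was lowest at 6.22, and WT mouse 169, at 7.59, lay among the KO livers.

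The acyl-CoA thioesterases on chromosome 12, which release fatty acids from coenzyme A, differed in direction. *Acot1*, *Acot2*, *Acot3* and *Acot4* were at -0.73, -0.53, -0.74 and -0.55 (adjusted p from 0.159 to 0.246), and *Acot5* was at 0.45 with every KO liver above every WT liver (adjusted p = 0.123). *Acot5* was dim, at 4.64 to 5.09 in WT and 5.12 to 5.53 in KO livers, far below the median of an array. The opposite direction thus rests on 1 weak probe set. In KO mouse 18 *Acot1* (8.28), *Acot2* (8.60) and *Acot4* (10.16) lay within the WT range, and *Acot3* (7.92) lay above it. These genes are similar in sequence and may share probes.

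Over the whole PPARα list, 19 of 27 measured genes were below 0, and 0 were called by limma. With an unadjusted p under 0.05 there were 12 below 0 and 1 above it, against 6.14% and 6.38% of all probe sets. The median log2 fold change was -0.15 and the mean -0.43, against a median of 0.001 over all probe sets, and the median was -0.12 without WT mouse 170 and -0.09 without KO mouse 166. The mean level of the list ran from 9.20 to 9.60 in WT and from 8.80 to 9.08 in KO livers. At 0 h the median was -0.10. The β-oxidation genes that PPARα also drives differed much less. All 25 lay at or below 0, though *Hadha* (0.00) turned to 0.03 with quantile normalization. The median was -0.06 (-0.10 without KO mouse 109), and *Acadm* was at -0.14. An unadjusted p under 0.05 was found for 4 of the 25, against 6.14% of all probe sets lower. Ketogenesis (5 genes) had a median of -0.03 (-0.07 without KO mouse 109), with *Acat1* at -0.19. Lipogenesis and elongation (23 genes) had a median of 0.00 (-0.09 without KO mouse 166) and 1 gene under an unadjusted p of 0.05, *Elovl3*, at -0.64 (-0.39 without KO mouse 166). Cholesterol synthesis and uptake (21 genes) had a median of -0.04, with -0.11 without KO mouse 166 and 0.04 without WT mouse 167.

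**Figure D3:**
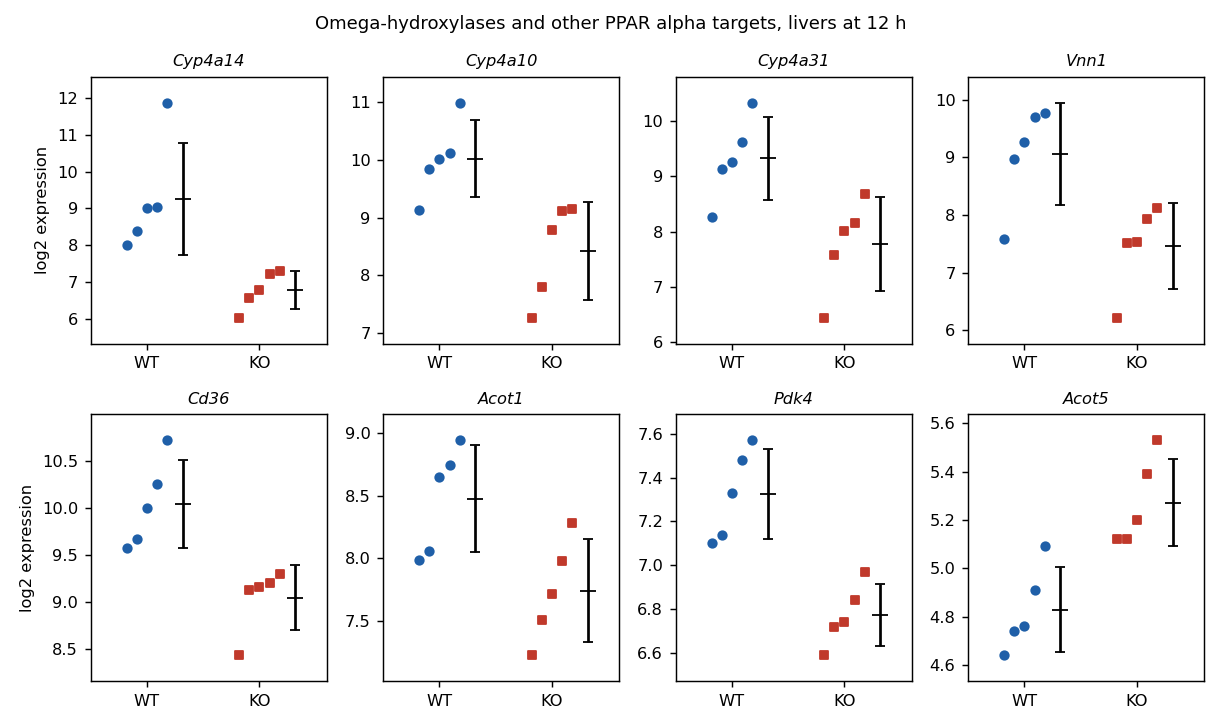
Log2 expression (vertical axes, which differ between panels and do not start at 0) of 8 targets of PPARα in WT (circles) and KO (squares) livers at 12 h. Each point is 1 mouse, ordered by level within its group, with the mean and SD of 5 mice beside it. *Cd36* lies between 8.43 and 9.29 in KO and between 9.57 and 10.72 in WT livers. *Acot5* lies higher in KO livers but is dim in both groups (4.64 to 5.53). None of the 8 genes was called.

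List medians have to be read beside the brightness of the probe sets. All probe sets were sorted by mean level into 10 bins of equal size. The median log2 fold change was 0.061 in the bin from 6.73 to 7.17 and -0.046 in that from 8.97 to 9.90. It was -0.043 in the brightest bin (9.90 to 14.50). The corresponding values at 0 h were 0.015, -0.023 and -0.018. Most metabolic lists hold probe sets of the bright bins, where a list median of -0.03 to -0.06 is close to that of all probe sets. Counts at an unadjusted p under 0.05 likewise have to be read beside the 6.38% of all probe sets higher and the 6.14% lower. Both shares are over probe sets of all levels. The shares within the bright bins, where the median lies below 0, were not computed.

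In drug metabolism 26 of 29 phase I enzymes lay below 0. With an unadjusted p under 0.05 there were 12 in that direction and 0 in the other, against 6.14% and 6.38% of all probe sets. The median was -0.15 (mean level 10.63 to 10.83 in WT and 10.39 to 10.57 in KO livers). *Fmo2*, a flavin monooxygenase, held 10.56, 9.57, 10.54, 10.34 and 10.63 in WT and 9.56, 9.06, 9.73, 9.56 and 9.59 in KO livers. WT mouse 167 lay among the KO livers and the other 4 above them (log2 fold change -0.83, adjusted p = 0.09). *Cyp2c38* had no overlap between the groups, with 9.23 to 9.92 in WT and 8.24 to 8.84 in KO livers (-1.03, adjusted p = 0.219), and was at -0.76 at 0 h. *Cyp2b13* (-0.39) and *Cyp2c54* (-0.33) did not overlap either. *Cyp2b9* was at -1.20, with WT mouse 111 at 9.39 and the other WT livers from 6.07 to 7.37, and without 1 array its log2 fold change ran from -1.47 to -0.64.

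The nuclear receptors that switch these enzymes on lay lower as well. *Nr1i3* (CAR) held 11.69, 11.58, 11.75, 11.61 and 11.89 in WT and 11.50, 10.79, 11.16, 11.56 and 11.14 in KO livers (log2 fold change -0.47, adjusted p = 0.137). *Nr1i2* (PXR) lay between 10.61 and 10.76 in WT and between 10.28 and 10.52 in KO livers (-0.29, adjusted p = 0.116) and was at -0.23 at 0 h. For both, every KO liver lay below every WT liver.

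Among 27 phase II enzymes, 6 had an unadjusted p under 0.05 below 0 and 1 above it, against 6.14% and 6.38% of all probe sets. Their median was -0.05 (-0.11 without WT mouse 111). The glutathione transferases split. *Gstt3* held 9.87 to 10.76 in WT and 9.01 to 9.86 in KO livers (-0.72, adjusted p = 0.129). *Gstp1* held 12.84 to 13.59 in WT and 13.60 to 13.89 in KO livers (0.38, adjusted p = 0.175, and 0.25 without WT mouse 170). For both genes the groups almost met without overlap. *Sod1*, which removes superoxide, did not overlap either (-0.18, adjusted p = 0.186).

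Several of these enzymes are known to differ between the sexes. Of 17 genes known to be higher in female liver, 15 lay below 0, with a median of -0.23 (-0.37 without WT mouse 169). In that direction 6 had an unadjusted p under 0.05 (*Cyp2b9*, *Cyp2b13*, *Fmo2*, *Acot3*, *Cyp3a44* and *Slc22a26*), against 6.14% of all probe sets. Of 17 genes known to be higher in male liver, 13 lay above 0. With an unadjusted p under 0.05 there were 3 above 0 (*Gstp1*, *C6* and *C9*) and 2 below 0 (*Elovl3* and *Nat8*). The shares of all probe sets were 6.38% and 6.14%. The median of these 17 genes was 0.16, and 0.06 without WT mouse 170. *Xist*, which is transcribed from an inactive X chromosome, lay at 5.10 ± 0.41 (SD, n = 5) in the KO livers and at 5.08 ± 0.18 (SD, n = 5) in the WT livers. The 3 Y-linked genes measured had mean levels of 8.03 to 10.13 in KO livers. *Cyp2b9*, *Cyp2b13*, *Fmo2*, *Cyp3a44* and *Acot3* are also among the drug enzymes or PPARα targets above, so the lists are not separate evidence.

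In amino acid metabolism all 20 genes of the urea cycle and amino acid breakdown lay at or below 0, though *Gpt2* (0.00) turned to 0.03 with quantile normalization. Of them 8 had an unadjusted p under 0.05, against 6.14% of all probe sets in that direction. The median was -0.15, against -0.03 at 0 h, and the mean level ran from 12.12 to 12.24 in WT and from 11.90 to 12.10 in KO livers. *Got1*, the cytosolic aspartate aminotransferase, lay between 12.70 and 13.21 in WT and between 12.22 and 12.99 in KO livers. KO mouse 166, the highest of its group, was within the WT range (log2 fold change -0.46, adjusted p = 0.171). *Aass*, the first enzyme of lysine breakdown, did not overlap between the groups (-0.27, adjusted p = 0.124). *Asl* and *Tat* were at -0.22 and -0.24. *Etnppl*, which breaks down phosphoethanolamine, lay between 11.43 and 11.75 in WT and between 10.50 and 11.15 in KO livers (-0.59, adjusted p = 0.131), and was at -0.54 at 0 h.

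In glucose metabolism 13 of 15 genes of gluconeogenesis and glycolysis lay below 0 (median -0.12, and -0.07 without WT mouse 170). Of them 2 had an unadjusted p under 0.05, against 6.14% of all probe sets lower. *Slc2a1*, the glucose transporter GLUT1, held 9.03 to 9.41 in WT and 8.71 to 9.02 in KO livers (-0.39, adjusted p = 0.183). *Ppp1r3c*, a glycogen-targeting subunit of protein phosphatase 1, was at -0.96 with overlap (adjusted p = 0.186). *Phkb*, a subunit of phosphorylase kinase, did not overlap (-0.37, adjusted p = 0.137). The glycogen synthase of the liver, *Gys2*, was at 0.05. The median of the 13 glycogen genes was -0.11, and -0.01 without WT mouse 170.

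Of 23 genes of the insulin, growth hormone and IGF axis, 4 had an unadjusted p under 0.05 below 0 and 0 above it. The shares of all probe sets were 6.14% and 6.38%. The median of the list was -0.07 (-0.03 without WT mouse 111). *Igfbp1*, an IGF-binding protein that insulin represses and fasting raises, held 9.46, 10.28, 9.90, 10.31 and 9.22 in WT and 8.54, 9.35, 7.96, 8.40 and 7.53 in KO livers. Only KO mouse 55 reached the WT range, above WT mouse 170 (log2 fold change -1.48, 95% confidence interval -2.48 to -0.48, adjusted p = 0.204). At 0 h it was at 0.63. *Foxo1*, the transcription factor that insulin holds out of the nucleus, was at -0.37 (adjusted p = 0.109) and *Igfbp3* at -0.32 (adjusted p = 0.134).

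None of 17 core clock genes was called. With an unadjusted p under 0.05 there were 1 above 0 (*Bhlhe41*, 0.35, and 0.22 without WT mouse 168) and 5 below it, against 6.38% and 6.14% of all probe sets. The median was -0.04, which became -0.12 without KO mouse 110 and 0.03 without WT mouse 170. *Cry2*, a repressor of the clock as is *Cry1*, held 9.60, 9.64, 9.82, 9.71 and 9.78 in WT and 9.56, 9.59, 9.22, 9.48 and 9.52 in KO livers, and every KO liver lay below every WT liver (-0.24, adjusted p = 0.292). *Cry1* held 8.63, 8.42, 9.08, 9.06 and 8.67 in WT and 8.25, 7.98, 8.45, 8.52 and 8.27 in KO livers (-0.48, adjusted p = 0.154), with some overlap. *Arntl* (*Bmal1*) was also at -0.48, but the WT livers ran from 6.56 to 8.32 with mice 168 (8.32) and 169 (7.83) above the rest, while the KO livers lay between 6.74 and 7.04 (exact permutation test, two-sided, p = 0.23). Without WT mouse 168 the log2 fold change of *Arntl* was -0.24 and without WT mouse 111 it was -0.68. *Per2* and *Per3* were at -0.04 each. The mean level of the list was 9.40 in WT mouse 170 and 9.20 to 9.24 in the other WT livers.

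The genes higher in KO livers included an acute phase protein. *Saa2*, serum amyloid A2, held 9.27, 9.42, 9.40, 9.31 and 8.76 in WT and 9.85, 10.39, 9.68, 12.06 and 9.85 in KO livers. All KO livers lay above all WT livers, KO mouse 110 by far, and the log2 fold change of 1.13 had an adjusted p of 0.375. Without KO mouse 110 it was 0.71. At 0 h it was 1.20. *Hpx* (0.19) and *Saa3* (0.35) did not overlap either, though probes of *Saa2* and *Saa3* may share signal with related genes. The list as a whole had 16 of 24 genes above 0 and a median of 0.05, which became -0.02 without KO mouse 110. With an unadjusted p under 0.05 there were 3 above 0 and 1 below it, against 6.38% and 6.14% of all probe sets. *Fga*, the fibrinogen α chain, was at -0.35. Neutrophil markers had a median of 0.06 (0.01 without WT mouse 170) and their mean level ran from 5.66 to 5.86 in WT and from 5.74 to 5.88 in KO livers.

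*Nlrc5*, an activator of MHC class I genes, lay between 8.56 and 8.89 in WT and between 8.93 and 9.39 in KO livers (0.47, adjusted p = 0.09). *Nlrc5* has 18 probe sets, and the log2 fold changes of all 18 lay above 0, from 0.02 to 0.51, with none called. They share 1 gene and are not independent. Interferon-stimulated genes lay above 0 in 20 of 25 cases, with a median of 0.14 (0.05 without WT mouse 169). An unadjusted p under 0.05 was found for 2 of them (*Psmb8* and *Gbp3*, 0.28 each), against 6.38% of all probe sets higher. The mean level of the list was 8.04 to 8.27 in WT and 8.10 to 8.44 in KO livers, so the group ranges overlapped.

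Among cell cycle genes, both directions were found. *Ccne1*, cyclin E1, held 7.43, 7.38, 7.15, 7.36 and 7.16 in WT and 7.61, 8.25, 7.70, 7.87 and 7.61 in KO livers (0.51, adjusted p = 0.09). *Ccng2*, a cyclin tied to growth arrest, held 8.34, 8.07, 8.51, 8.51 and 8.10 in WT and 7.78, 7.73, 7.15, 7.56 and 7.48 in KO livers (-0.77, adjusted p = 0.0529). Neither overlapped, and at 0 h they were at 0.00 and 0.20. Of 20 proliferation genes 17 lay above 0 (median 0.13). An unadjusted p under 0.05 was found for 3, *Ccne1*, *Aurka* and *Plk1*, against 6.38% of all probe sets higher. The mean level of the list was 6.94 to 7.22 in WT and 7.05 to 7.35 in KO livers, and the median of all probe sets between 6.73 and 7.17 was 0.061.

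The rule for naming also gave genes outside the groups above. In the lower direction they were *Cd207* (langerin, -1.03), *Gpx6* (-0.98), *Hamp2* (the hepcidin paralogue, -0.97), *Slc16a5* (a monocarboxylate transporter, -0.96) and *Acss3* (a mitochondrial acyl-CoA synthetase, -0.72), with adjusted p from 0.0763 to 0.167. For *Cd207* the WT livers spread from 7.18 to 8.49 and the KO livers only from 6.52 to 6.89. In the higher direction they were *Olfr767* (an olfactory receptor, 0.98), *Inhba* (the activin βA subunit, 0.61), *Wnt7a* (a Wnt ligand, 0.54), *Pdp1* (a pyruvate dehydrogenase phosphatase, 0.53), *Zfp9* (0.50), *Gm2027* (0.49), *Noto* (0.47), *Acer1* (a ceramidase, 0.46) and *Hunk* (a kinase, 0.46). *Pdp1*, which opposes the action of PDK4 on pyruvate dehydrogenase, held 6.85 to 7.61 in WT and 7.66 to 7.88 in KO livers (adjusted p = 0.0805). *Wnt7a* had the lowest adjusted p of these, 0.0683.

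**Figure D4:**
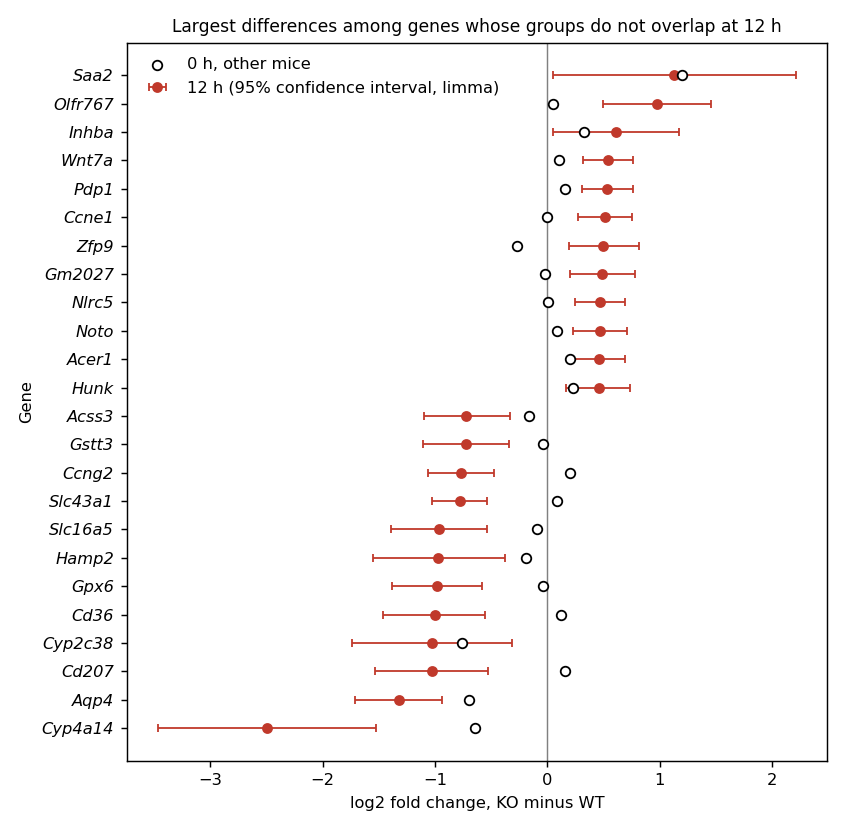
Log2 fold change, KO minus WT (horizontal axis), of the 12 lowest and 12 highest named genes (vertical axis) whose 5 KO and 5 WT values did not overlap at 12 h. Filled circles with bars give the 12 h value with its 95% confidence interval from limma, and open circles the value at 0 h in other mice. *Cyp4a14* is lowest at -2.49 and *Saa2* highest at 1.13, or 0.71 without KO mouse 110. The genes were chosen for their 12 h values, and of them *Aqp4* and *Slc43a1* were called.

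Markers of the other liver cells differed in part. Of 14 markers of sinusoidal endothelial cells, which line the blood spaces and clear macromolecules, 13 lay below 0. In that direction 10 had an unadjusted p under 0.05, against 6.14% of all probe sets. The median was -0.20 (-0.09 at 0 h and -0.19 without WT mouse 170). Their mean level ran from 9.72 to 10 in WT and from 9.52 to 9.77 in KO livers, and no defining marker was at the bottom of the scale. *Stab2*, a scavenger receptor, held 10.28, 10.12, 10.32, 10.34 and 10.55 in WT and 10.05, 9.85, 9.97, 9.99 and 9.91 in KO livers (-0.37, adjusted p = 0.0859). *Gpr182* (-0.36) and the phosphatase *Ptprb* (-0.26) did not overlap either, whereas *Lyve1* was at 0.01 and *Clec4g* at 0.00.

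In whole liver RNA, fewer cells of a type and less RNA per cell cannot be told apart. The part of these markers in the differences of *Cd36*, which endothelial cells also express, and of the other genes above was not tested. *Reln* (-0.35), *Dcn* (-0.27) and *Ecm1* (-0.23), markers of stellate cells, did not overlap, while *Col1a1* was at 0.21, and the median of the 13 markers was -0.09 (-0.14 without KO mouse 109). Medians were -0.04 for hepatocytes (10 markers), 0.01 for Kupffer cells and macrophages (14), 0.07 for lymphocytes (14), -0.03 for cholangiocytes (5) and 0.08 for erythroid cells (3, and -0.03 without WT mouse 170). Those of Kupffer cells and cholangiocytes also changed sign without 1 array, to -0.05 and 0.04.

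The medians of the other lists, housekeeping and secretory ones among them, lay between -0.11 and 0.06. The respiratory chain and ATP synthase (27 genes) had a median of -0.04 and no gene under an unadjusted p of 0.05, and the proteasome (23 genes) had 0.01. Heat shock and the unfolded protein response had 0.06, lipoproteins and lipases -0.06, iron and heme genes -0.07, phospholipid metabolism -0.10, bile acid synthesis and transport -0.11, xenobiotic sensors and redox genes -0.03 and cell junction genes -0.04. Of the 18 xenobiotic sensors and redox genes, 5 had an unadjusted p under 0.05 below 0 and 0 above it, against 6.14% and 6.38% of all probe sets. In phospholipid metabolism 12 of 14 genes lay below 0, and in bile acid synthesis and transport 17 of 24. *Hsph1*, a heat shock co-chaperone, was at 0.42 (adjusted p = 0.245). Some medians near 0 changed sign with the processing. With all arrays kept but another setting, those of the CREB family, ketogenesis, cholesterol, xenobiotic sensor and cell junction lists reached 0.01, 0.03, 0.01, 0.02 and 0.01, and those of the Kupffer cell and proteasome lists reached -0.03.

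Over all 632 measured genes of the 37 lists, limma called 0. An unadjusted p under 0.05 was found for 96 below 0 (15.2%) and 22 above it (3.48%), against 6.14% and 6.38% of all probe sets. Every KO liver lay below every WT liver for 29 of them (4.59%, against 1.24%) and above for 7 (1.11%, against 1.18%). The lists hold mostly bright liver genes and were written with earlier results of these data known, so these shares describe the lists.

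**Figure D5:**
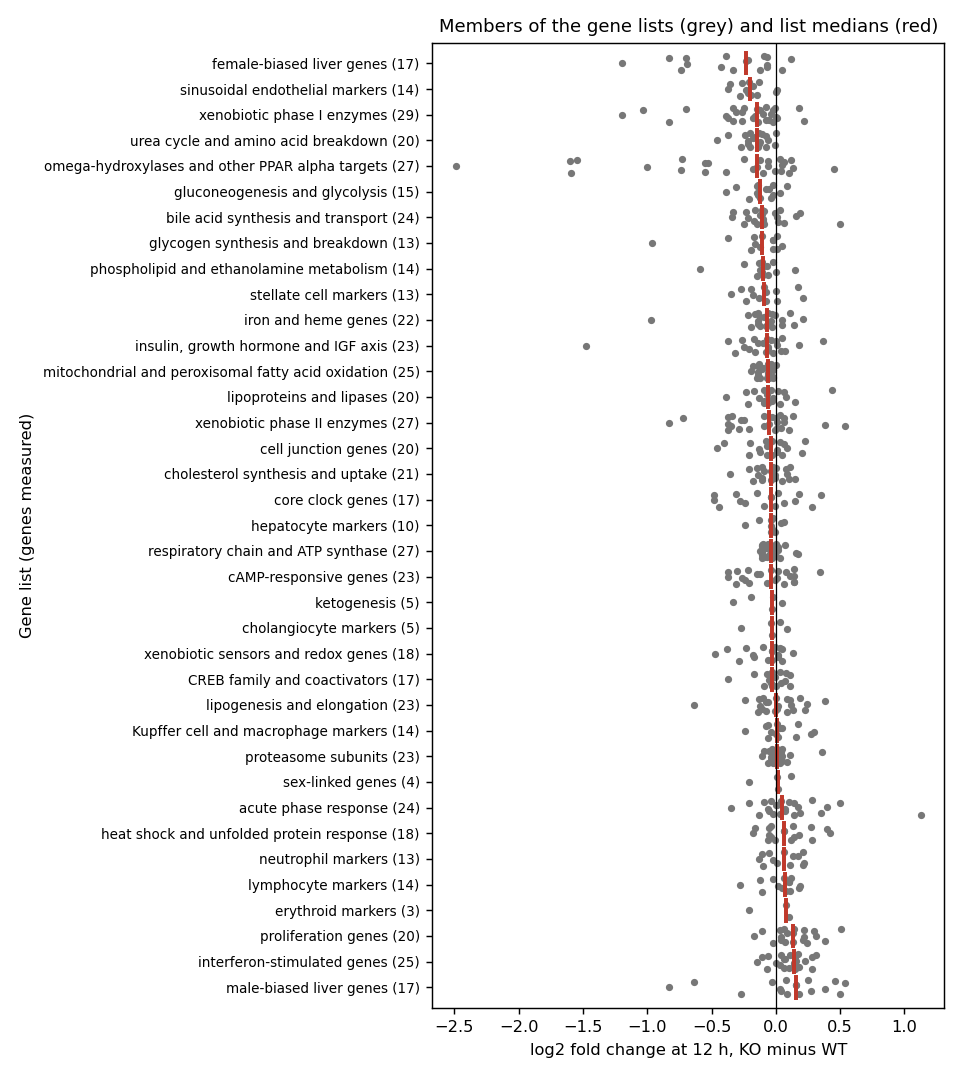
Log2 fold change at 12 h, KO minus WT (horizontal axis), of the members of 37 gene lists (vertical axis, with the number of genes measured), ordered by median. Grey points are genes and red bars list medians. Medians run from -0.23 (genes known to be higher in female liver) to 0.16 (genes known to be higher in male liver), and the 3 lowest points are *Cyp4a14*, *Cyp4a10* and *Vnn1* of the PPARα list. None of the members was called.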

How the data were processed

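The deposited values are log2 expression per probe set, made by the authors with RMA, for which the submitters' processing notes name no version. They are therefore background-corrected and normalized already, and the sources used here do not say which arrays were normalized together. The table holds 35557 probe sets, of which 9868 were empty on all arrays and left out. No other filter was used. Probe sets with 1 gene in the platform annotation (20777, for 19661 genes) were named, and those with several (232) or none (4680) were tested unnamed. Levels of different probe sets were not compared as amounts of RNA.

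Samples were grouped by genotype and time in their labels. A model of 4 group means over 20 arrays was fitted by limma (version 3.58.1, R 4.3.3, functions lmFit and eBayes), with the contrast KO minus WT at 12 h and Benjamini-Hochberg adjustment over 25689 probe sets, and adjusted p-values in the text come from this fit. Single differences were also tested over all 252 splits of 5 against 5 mice (exact permutation test, two-sided).

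Named were *Crem*, called genes, the 12 highest and 12 lowest genes without overlap between the groups, and the extremes and the genes without overlap of each list. List members with an unadjusted p under 0.01 or a log2 fold change beyond 0.5, the further list members given with values, *Dsg2*, *Psma8*, the 4 genes with a CRE, and the unnamed probe sets were added after their values were seen. In a list a gene was represented by its brightest probe set. The members, the lists and the tests were chosen with earlier results of these data known. Alternatives were quantile normalization, centring, bright probe sets alone, 12 h arrays alone, weights per array, the batch label as a fixed block, a robust prior with an intensity trend, and runs without each of the 12 h arrays.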

Additional observations from a re-analysis of the deposited data

Results flagged for a closer look

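In 11 of 138 groups of 5 values tested, 1 mouse lay apart from the other 4 by Dixon's criterion at 95%, where chance gives about 6.9. Among genes, *Cyp4a14* in WT mouse 170 was 11.87 against 8.01 to 9.04 in the other WT livers. *Saa2* in the same mouse was 8.76 against 9.27 to 9.42. In WT mouse 111 *Olfr767* was 7.31 against 8.51 to 8.94 and *Gm2027* 4.89 against 5.50 to 5.71. *Gm2027* in KO mouse 109 was 6.30 against 5.80 to 5.95, and *Cd36* in KO mouse 55 was 8.43 against 9.12 to 9.29. Among list means, WT mouse 111 had 10.58 for ketogenesis against 10.42 to 10.45 and 10.88 for lipogenesis and elongation against 11.07 to 11.13. WT mouse 169 had 11.11 for bile acid synthesis and transport against 11.20 to 11.23, WT mouse 170 had 9.40 for the core clock against 9.20 to 9.24, and KO mouse 18 had 8.00 for the sex-linked genes against 8.15 to 8.21.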

How the results depend on the processing

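The 6 calls at 12 h (4 higher, 2 lower) became 2 with array weights, 2 with quantile normalization, 3 with batch as a fixed block, 11 with an intensity trend and robust prior, 23 with each array centred on its median (5 higher and 18 lower, with the median of all probe sets at -0.041), 23 with bright probe sets alone (7 higher and 16 lower) and 0 with the 12 h arrays alone, where fewer samples set the spread. Leaving out 1 array gave 1 to 37 calls, with 1 without KO mouse 55, 3 without KO mouse 109 or 110, 27 without WT mouse 169 and 37 without WT mouse 167. The cause of these shifts was not tested. The difference between the times had 0 calls under each setting. The 136 named genes gave 2289 values under other settings, of which 2200 kept their direction and side of the threshold, 45 lost a call, 24 gained one and 20 changed sign. *Gpt2* turned to 0.02 with array weights, 0.03 with quantile normalization and -0.04 to 0.05 without 1 array, *Hadha* to 0.03 with quantile normalization and -0.03 to 0.03 without 1 array, and *Lyve1* to -0.03 with centring and -0.10 to 0.13 without 1 array. Without 1 array *Gys2* ran from -0.01 to 0.13 and *Slc16a6* from -0.04 to 0.14. Of 627 list medians, 612 moved by less than the spread between mice and 15 by more. No paired analysis was possible because each mouse number occurs in 1 group.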
